A study of Mus musculus with 6 samples.

Results

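The testis-specific serine kinases are 6 related genes of the mouse, Tssk1, Tssk2, Tssk3, Tssk4, Tssk5 and Tssk6, taken by gene symbol from a table of 45777 genes. All 6 of 6 were found and all 6 passed the filter on low counts, so that no member was left out. Whole testes of wild-type mice were sequenced as total RNA after 16 weeks of LDC liquid diet at 10 ml a day, ethanol-fed in 3 libraries and control-fed in 3. Both groups had first taken the control LDC diet for 5 days. The labels give no strain, age or ethanol dose, nor do they state whether each library came from a separate animal, so every p-value rests on the spread among these libraries alone, and that spread may be technical.

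These kinases belong to the calcium/calmodulin-dependent group of protein kinases and are made almost only in the testis, where their messages appear in germ cells after meiosis, as round spermatids reshape into sperm. Male mice that lack Tssk1 and Tssk2 together, Tssk3 or Tssk6 are infertile, and loss of Tssk4 reduces fertility. Among their known partners are Tsks, the substrate of Tssk1 and Tssk2, Tsacc, a co-chaperone that activates Tssk6, and the histone variant H2AX, whose phosphorylation in spermatids needs Tssk6.

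The members differ in gene structure and in how alike their messages are, which bears on how well their reads can be told apart. Coordinates are 1-based on mm10 (GRCm38), from RefSeq. Tssk1 (Gene ID 22114, chr16:17894203-17895653, plus strand) and Tssk2 (Gene ID 22115, chr16:17898637-17900024, plus strand) are neighbours, each a single exon, with 2983 bases between them. Tssk6 (Gene ID 83984, chr8:69902184-69903518, plus strand) is also a single exon. Tssk3 (Gene ID 58864, chr4:129489008-129491730, minus strand) has 2 exons in GENCODE M21, Tssk4 (Gene ID 71099, chr14:55643651-55652539, plus strand) has 3 or 4 by transcript, and Tssk5 (Gene ID 73542, chr15:76371958-76375191, minus strand) has 8.

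To show how close the family is, the 60-base coding stretch with the most bases shared by Tssk1 to Tssk5 is printed below, 5′ to 3′ on the coding strand, from GENCODE M21 transcripts. Its first part codes for the end of the kinase activation segment, the loop that helps to hold the substrate, and the rest for the residues that follow. Capitals mark the 27 of 60 bases that are identical in these 5 genes. The stretches lie in coding exons at chr16:17894872-17894931 (Tssk1), chr16:17899254-17899313 (Tssk2), chr4:129489317-129489376 (Tssk3), chr14:55651637-55651696 (Tssk4) and chr15:76373084-76373143 (Tssk5).
Tssk1: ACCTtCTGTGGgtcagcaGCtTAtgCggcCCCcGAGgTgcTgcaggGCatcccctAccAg
Tssk2: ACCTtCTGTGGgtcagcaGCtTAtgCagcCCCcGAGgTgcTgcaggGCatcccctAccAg
Tssk3: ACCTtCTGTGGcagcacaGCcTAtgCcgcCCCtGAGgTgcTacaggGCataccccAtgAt
Tssk4: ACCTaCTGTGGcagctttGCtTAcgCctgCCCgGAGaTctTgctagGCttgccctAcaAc
Tssk5: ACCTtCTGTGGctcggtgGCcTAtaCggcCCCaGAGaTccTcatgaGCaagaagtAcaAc

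Tssk1 and Tssk2 were the closest pair. Their coding sequences were identical at 845 of 1024 aligned bases, or 82.5%, and their transcripts shared an exact run of 113 bases. The other 14 pairs had a coding identity between 63.1% (Tssk4 with Tssk6) and 67.7% (Tssk1 with Tssk4), and no shared run longer than the 14 bases of Tssk3 with Tssk5. A read inside the 113-base run cannot be assigned to Tssk1 or Tssk2 by its sequence, and the labels give neither read length nor the handling of such reads, so the split of counts between these 2 genes is uncertain.

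The pair also shares sequence just before the start site. Of the 250 bases upstream of each start in RefSeq promoter windows (GRCm38.p6), found for 5 of the 6 members, the best local match between Tssk1 and Tssk2 had 41 identical bases in 52 alignment columns, from 53 to 2 bases upstream in Tssk1 (chr16:17894150-17894201) and from 63 to 15 bases upstream in Tssk2 (chr16:17898574-17898622), both on the plus strand. The 250-base windows of both genes overlap annotated exons of Dgcr2 on the minus strand. The 2 stretches are shown because the 2 genes are neighbours, with capitals for bases that match.
Tssk1: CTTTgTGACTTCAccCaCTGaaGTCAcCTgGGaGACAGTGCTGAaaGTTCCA
Tssk2: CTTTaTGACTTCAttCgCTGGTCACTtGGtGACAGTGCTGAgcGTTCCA
The windows of Tssk3 and Tssk4 lie inside the gene spans given above, ahead of a start further downstream (chr4:129490771-129491020 for Tssk3, in part within its own annotated exon, and chr14:55649934-55650183 for Tssk4). In the full 300-base windows, both strands were searched for 6 motifs. None of the 5 windows held the TATA box TATAAA (present in 13.6% of 32851 RefSeq windows), the full cAMP response element TGACGTCA (1.79%), the X-box core GTTGCC (12.5%) or the E-box CACGTG (7.15%). The shorter cAMP response core TGACG, which is part of the full element, was in the Tssk6 window (20.8% of all windows), and the SOX core ACAAT was in those of Tssk2, Tssk3 and Tssk6 (31%). These are letter matches only.

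Total counts ran from 38935654 to 47420249 per library. Counts of a member ran from 1031 (Tssk5) to 27642 (Tssk2) in a library, so that counting error alone was at most 3.11% of a value for Tssk5 and 0.683% for Tssk2. Epididymal markers were near 0 in every library, at up to 0.503 TPM summed over 5 genes of which 2 had no read, while the markers of elongating spermatids, the cells known to hold these kinases, summed to at least 48551 TPM in every library.

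All 6 kinase genes were transcribed on both diets, and their levels spanned a wide range. Levels are compared between genes in TPM, a transcript abundance that is divided by transcript length and scaled to the same total in each library. Tssk2 was highest. It stood at 792.7, 774.3 and 822.7 TPM for controls 1, 2 and 3, and at 802.6, 823.0 and 878.1 TPM for ethanol libraries 1, 2 and 3, and between 94 and 115 genes of the table had a higher level. Tssk1, which forms a complex with Tsks and Tssk2, stood at 459.8, 453.6 and 463.2 TPM in controls and 467.1, 470.0 and 463.6 TPM with ethanol. Tssk3 stood at 392.0, 380.0 and 401.7 TPM and, with ethanol, at 446.9, 386.2 and 405.4 TPM. These 3 genes kept the same order in each of the 6 libraries, and their ranges did not meet.

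The 3 others were lower, and here the order was less firm. Tssk6 stood at 206.6, 220.2 and 271.6 TPM in controls and 167.4, 137.8 and 213.9 TPM with ethanol. Tssk4, which phosphorylates the outer dense fibre protein ODF2 and the transcription factor CREB, stood at 189.6, 184.1 and 189.2 TPM and, with ethanol, at 197.8, 175.1 and 172.5 TPM. In controls every Tssk6 value was above every Tssk4 value, whereas with ethanol the 2 genes overlapped. Tssk5, the least studied member, was lowest at 39.0, 36.6 and 32.5 TPM in controls and 37.0, 34.4 and 28.5 TPM with ethanol. In each library the 6 levels summed to between 2027 and 2181 TPM, the lowest and the highest being ethanol library 2 and control library 3. The per-length level of Tssk1 rests on its RefSeq model of 1451 bases. GENCODE M21 gives a transcript of 3700 bases, on which the level would be lower.

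**Figure D1:**
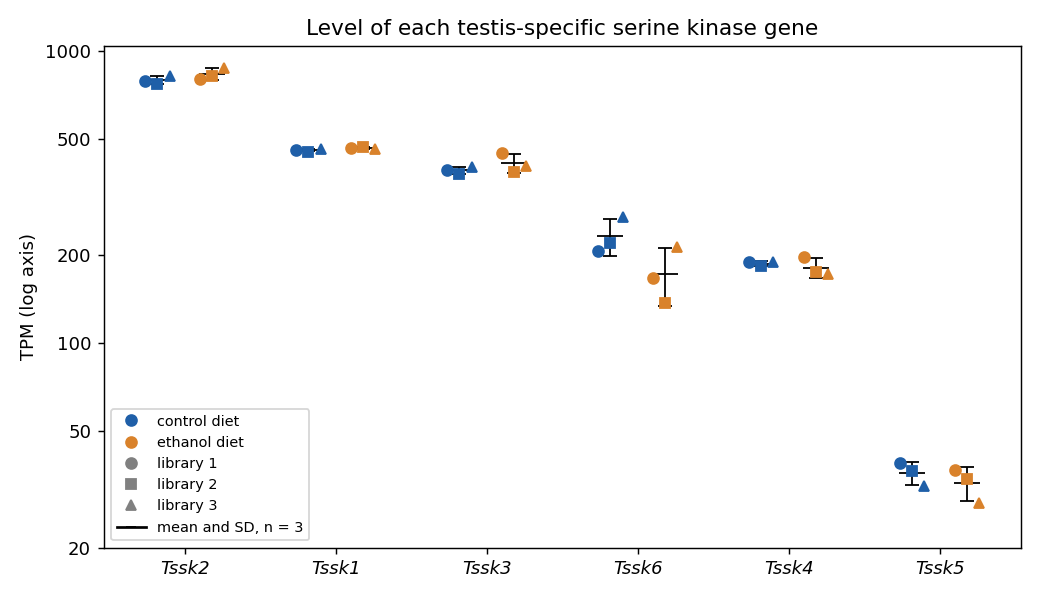
TPM (log axis) of each kinase gene in the 3 control (blue) and 3 ethanol (orange) libraries, with symbol shape for the library number and black bars for mean and SD. Tssk2, Tssk1 and Tssk3 sit close together by diet, while Tssk6 spreads from 137.8 to 271.6 TPM, with its 2 lowest values in ethanol libraries 2 and 1.

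With ethanol, no kinase gene was called different from controls. Over all 25073 genes tested, the quasi-likelihood test of edgeR, adjusted by Benjamini-Hochberg, called 0 genes (0% of those tested) at an adjusted p under 0.05, hence 0 of the 6 members, and DESeq2 called 330 genes (1.32%), of which 0 were members. Before adjustment, 3343 genes (13.3%) had an edgeR p under 0.05, 5.89% lower and 7.45% higher with ethanol, and 1 member, Tssk6, was among them. The log2 fold changes of the 6 members (ethanol over control, from counts scaled to library size) had a median of -0.07, with 4 below 0 and 2 above, beside a median of 0.0065 over all tested genes, of which 48.5% were below 0.

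Tssk6 had the largest difference of the family. Its product is a small kinase needed for the replacement of histones and for sperm head shape. Counts scaled to library size (CPM, with TMM factors) were 148.0, 146.8 and 202.3 for controls 1, 2 and 3, and for the ethanol libraries 108.1, 93.6 and 154.2. Ethanol libraries 1 and 2 were below all controls, and ethanol library 3 lay inside the control range, so the groups overlapped. Group means were 165.7 ± 31.7 CPM for the control diet against 118.6 ± 31.6 CPM for ethanol (SD, n = 3). The log2 fold change was -0.48 (SE 0.17, 95% interval -0.85 to -0.12). Its unadjusted edgeR p of 0.0137 ranked 1392 among all genes, and its adjusted p was 0.246. Fewer spermatids and less of this message per spermatid cannot be told apart in whole tissue. The value moved with single libraries of both diets. It was -0.32 without control library 3 (edgeR adjusted p = 0.548), -0.34 without ethanol library 2 (edgeR adjusted p = 0.559) and -0.72 without ethanol library 3 (edgeR adjusted p = 0.121).

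The Tssk6 transcript stands apart in base composition. GC content was 64.8%, above that of 99.6% of the 20604 tested genes with a GENCODE transcript, whereas the 5 other members had 52.4% to 54.4%, each taken from the longest transcript. With a correction for each library's trend with GC content and transcript length, a setting added after the data were seen, the log2 fold change of Tssk6 was -0.36 (SE 0.12, edgeR adjusted p = 0.194). The sign stayed negative in each of the 18 alternative settings run, this one included, between -0.72 and -0.32.

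The 5 other kinase genes lay closer to 0. Tssk5 was at 34.0, 29.9 and 29.5 CPM for controls against 29.1, 28.8 and 25.1 for ethanol, and its 3 ethanol values were below the 3 control values by a narrow margin. It was the 1 of 6 members without overlap between the diets in CPM, where 18.8% of all tested genes had none (9.03% lower and 9.76% higher with ethanol). In TPM its groups overlapped. Its log2 fold change was -0.17 (SE 0.09, 95% interval -0.36 to 0.024, edgeR adjusted p = 0.44). Tssk4 was at 129.6, 115.1 and 133.1 CPM against 120.2, 112.7 and 117.6 for ethanol, for a log2 fold change of -0.11 (SE 0.07, 95% interval -0.26 to 0.042, edgeR adjusted p = 0.533). The groups overlapped. For Tssk4 and Tssk5 the sign was negative in the same 18.

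Tssk1, Tssk2 and Tssk3 differed between the diets by less than the spread among libraries. Tssk1 was at 353.9 ± 23.5 CPM for controls against 346.1 ± 17.8 for ethanol, and its log2 fold change of -0.03 had a 95% interval of -0.18 to 0.11. In TPM its 3 ethanol values were above the 3 controls, and the share of all genes without overlap was not computed in TPM. On log2(TPM + 1) the log2 difference of Tssk1 was 0.025, so that its sign turned with the scale. The median of all genes on that scale was 0.04. Tssk2 was at 588.2 ± 50.4 against 592.9 ± 60.6 CPM, and its log2 fold change of 0.012 had a 95% interval of -0.17 to 0.19. Tssk3 was at 240.6 ± 21.2 against 242.1 ± 12.7 CPM, and its log2 fold change of 0.0086 had a 95% interval of -0.15 to 0.17. The signs of Tssk1, Tssk2 and Tssk3 each turned when some single library was left out. A missed threshold does not show that the levels were alike.

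**Figure D2:**
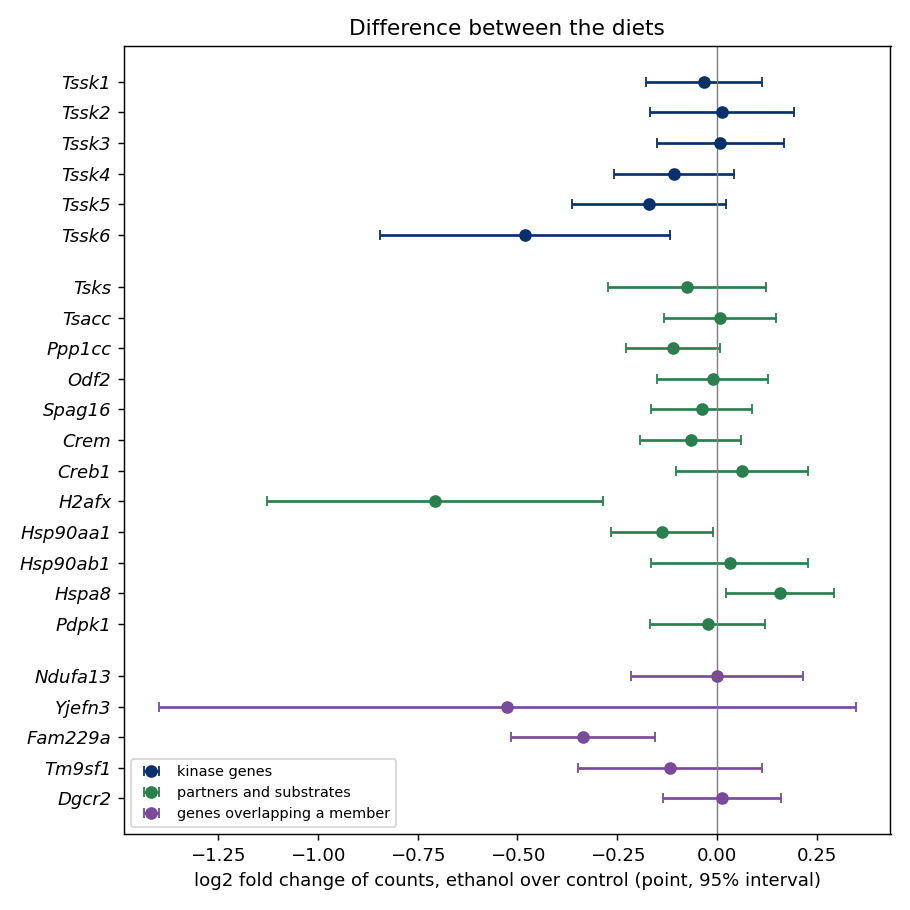
Log2 fold change of counts (ethanol over control, edgeR) with 95% interval for the 6 kinase genes, their 12 listed partners and substrates, and 5 genes that overlap a member. The interval lies wholly below 0 for Tssk6 (-0.85 to -0.12), H2afx, Hsp90aa1 and Fam229a and above 0 for Hspa8, none of which passed the test over all genes, and includes 0 for the 5 other kinase genes.

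Within each library the 6 genes kept similar proportions, with the clearest difference between the diets in the share of Tssk6. Tssk2 made up 37.9 ± 0.21% of the summed TPM of the family in controls and 39.7 ± 1.58% with ethanol (SD, n = 3), Tssk1 21.8 ± 0.51% and 22.2 ± 0.89%, and Tssk3 18.6 ± 0.22% and 19.6 ± 1.27%. Tssk4 took 8.93 ± 0.23% and 8.65 ± 0.68%, and Tssk5 1.72 ± 0.20% and 1.59 ± 0.24%. Tssk6 took 9.93%, 10.7% and 12.5% in controls against 7.90%, 6.80% and 9.89% for ethanol. All 3 ethanol shares were below the 3 control shares, with ethanol library 3 just under control library 1. How often other genes would separate in such a share was not computed, and in CPM and TPM the Tssk6 values of the diets overlapped. The TPM ratio of Tssk2 to Tssk1 was 1.72, 1.71 and 1.78 in controls and 1.72, 1.75 and 1.89 with ethanol, and overlapped.

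**Figure D3:**
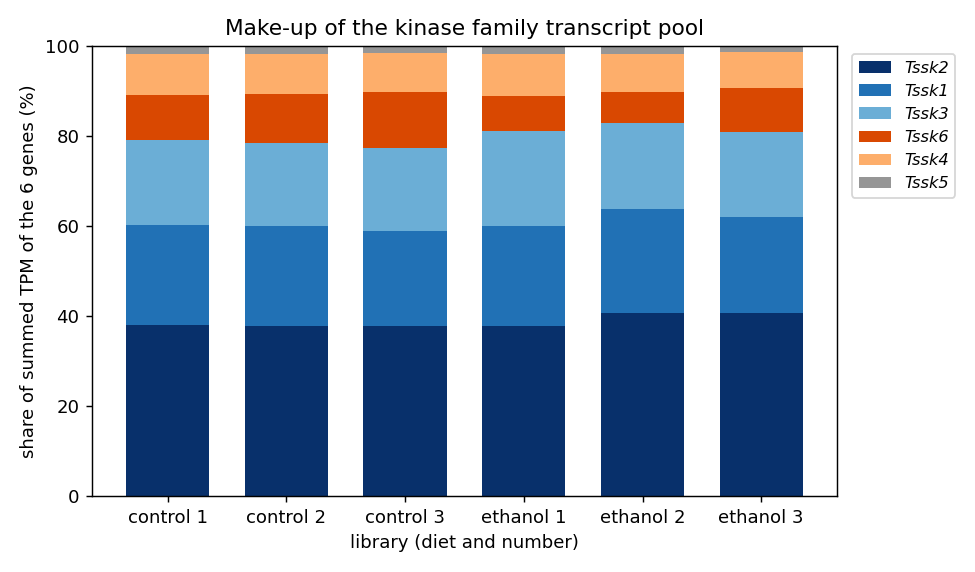
Share of each kinase gene in the summed TPM of the 6 genes, in percent, for each of the 6 libraries. Tssk2 fills 37.7% to 40.6% of every bar, and the dark orange Tssk6 segment is thinnest in ethanol library 2, at 6.80%.

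Set against the mean of the 5 other members in log2 CPM, Tssk6 stood at -0.34, -0.19 and 0.095 in controls and -0.67, -0.87 and -0.21 with ethanol. The difference between the diets was -0.44, and the groups overlapped through ethanol library 3 and control library 1. By an exact permutation test, two-sided, p was 0.2 for Tssk6. It was the only member tested in this way and the one with the largest difference. With 3 libraries against 3 no p below 0.1 can be reached, so this test cannot settle whether Tssk6 differed from the rest of the family. By the same measure Tssk1, Tssk2 and Tssk3 were higher with ethanol without overlap, by 0.12, 0.17 and 0.17. For each of them Tssk6 is part of the mean of the others. Tssk4 and Tssk5 overlapped. The share over all genes was not computed for this measure.

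**Figure D4:**
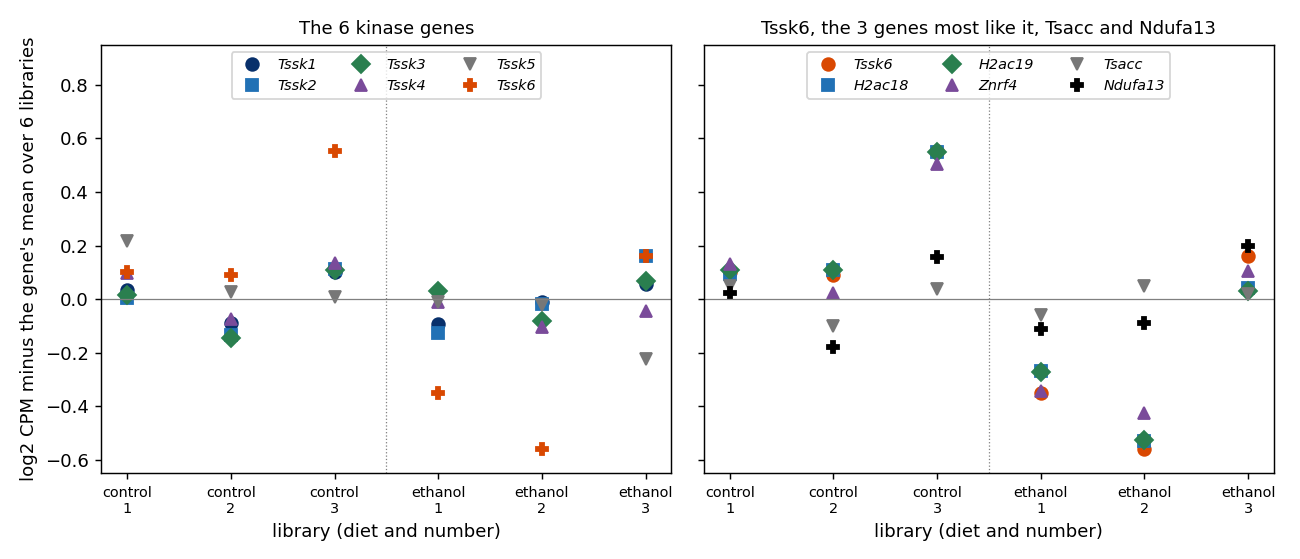
Log2 CPM of each gene minus its own mean over the 6 libraries, for the 6 kinase genes (left) and for Tssk6 with the 3 genes most like it, its co-chaperone gene Tsacc and the overlapping gene Ndufa13 (right); the dotted line separates the diets. Tssk6 is highest in control library 3 and lowest in ethanol library 2, and H2ac18, H2ac19 and Znrf4 follow it while Tsacc stays near its mean.

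The pattern of Tssk6 over the 6 libraries was closest to 2 core histone genes and a ubiquitin ligase gene. Likeness was measured as the root mean square difference between centred log2 CPM values, among the 5411 tested genes whose mean CPM was within 4-fold of that of Tssk6. These values had no GC and length correction and kept any difference between the diets. The 3 closest were H2ac18 at 0.061, H2ac19 at 0.064 and Znrf4 at 0.069. H2ac18 and H2ac19 are near-identical copies whose reads may be shared, so they are not independent of each other. H2ac18 was at 158.1 ± 29.6 CPM for controls against 111.8 ± 22.2 for ethanol, with a log2 fold change of -0.50 (edgeR adjusted p = 0.187), and Znrf4, of which the transcript is 68.4% GC, was at 397.3 ± 72.2 and 293.5 ± 60.8 CPM. The other kinase genes ranked between 3087 (Tssk4) and 10217 (Tssk5) among the 25072 other tested genes by likeness to Tssk6. In contrast, Tssk1 ranked 221 by likeness to Tssk2, and Tssk2 ranked 852 by likeness to Tssk1, a pair whose reads may also be shared. Such ranks were not particular to this pair. By likeness to Tssk3, Tssk1 ranked 499, Tssk4 663 and Tssk5 10570, and by likeness to Tssk4, Tssk3 ranked 932.

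Partners and substrates of the kinases were described from a list of 12 genes, all of them tested. None passed edgeR's adjusted threshold (0 higher, 0 lower), 8 were below 0 and 4 above, and the median was -0.03. Before adjustment, 2 had an edgeR p under 0.05 on the lower side, H2afx and Hsp90aa1, and 1 on the higher side, Hspa8, where 13.3% of all tested genes had such a p (5.89% lower, 7.45% higher). Of the 12 genes, 4 had no overlap in CPM between the diets, 3 lower (Ppp1cc in addition to H2afx and Hsp90aa1) and 1 higher, where 18.8% of all tested genes had none (9.03% lower, 9.76% higher).

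Tsks and Tsacc, the dedicated partners, showed no difference beyond the spread. Tsks was at 533.9, 461.3 and 571.4 CPM for controls against 463.9, 464.0 and 559.3 for ethanol, and the groups overlapped (log2 fold change -0.07, SE 0.09, edgeR adjusted p = 0.771). With the GC and length correction its sign turned, to 0.011. Tsacc was at 151.0, 136.5 and 150.1 CPM for controls against 140.4, 151.3 and 148.0 for ethanol, again overlapping (log2 fold change 0.0074, SE 0.06, 95% interval -0.13 to 0.15, edgeR adjusted p = 0.976). Its sign turned when control library 2, ethanol library 2 or ethanol library 3 was left out. The TPM ratio of Tssk6 to Tsacc, its activator, was 0.429, 0.470 and 0.589 in controls and 0.336, 0.270 and 0.455 with ethanol, where ethanol library 3 lay inside the control range.

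H2afx, which encodes the histone variant H2AX, had the largest log2 fold change of the list. It was at 127.0, 134.9 and 203.7 CPM for controls against 82.2, 77.7 and 125.4 for ethanol. All 3 ethanol values were below the controls, the closest being ethanol library 3 and control library 1, and library 3 was the highest of each diet, as it was for Tssk6. The log2 fold change was -0.71 (SE 0.19, 95% interval -1.13 to -0.29). By edgeR's test across all genes the p was 0.00335 before and 0.179 after adjustment. The value was -0.47 without control library 3 and -0.62 with the GC and length correction. Its transcript has a GC content of 62.3%, above that of 98.7% of tested genes with a value. H2afx ranked 31 of 25072 by likeness to Tssk6, ahead of the 11 other partners, of which Tsks, at 62.0% GC, was next at 1297. These ranks are from values without the GC and length correction, and the part of GC content in them was not tested.

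The chaperone, enzyme and structural genes of the list differed by less than H2afx. Hsp90aa1, a chaperone that client kinases of this family bind, was at 2191 ± 94.4 CPM for controls against 1990 ± 99.6 for ethanol (log2 fold change -0.14, SE 0.06, adjusted p = 0.336 by edgeR). The constitutive chaperone Hspa8 was at 257.9 ± 8.42 against 287.8 ± 16.3 CPM (log2 fold change 0.16, SE 0.06, adjusted p = 0.302 by edgeR). Ppp1cc, the phosphatase subunit found in the complex of Tssk1 with Tsks, was at 740.9 ± 9.86 against 686.7 ± 25.5 CPM (log2 fold change -0.11, SE 0.05, adjusted p = 0.414 by edgeR). Log2 fold changes were -0.07 for Crem, the spermatid transcription factor, 0.06 for Creb1, -0.04 for the axoneme protein gene Spag16, -0.011 for Odf2, 0.03 for Hsp90ab1 and -0.02 for Pdpk1, the kinase known to activate Tssk3. The signs of Odf2, Pdpk1, Creb1 and Hsp90ab1 turned under some settings.

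Of the 6 members, 4 overlap another gene on the opposite strand. The labels do not give the strand setting of the counting, so reads of the overlapping parts may be shared. The first 375 bases of Tssk6 overlap the 5′ end of Ndufa13, a subunit gene of respiratory complex I, which stood at 146.9 ± 16.9 CPM for controls against 146.8 ± 18.2 for ethanol (log2 fold change -0.00052, SE 0.10). In GENCODE M21 a transcript of Yjefn3 also spans its start, at up to 0.427 CPM in a library. Tssk3 overlaps Fam229a by 541 bases. Fam229a was at 124.8, 126.0 and 134.0 CPM for controls against 97.7, 91.9 and 115.2 for ethanol (log2 fold change -0.34, SE 0.08, edgeR adjusted p = 0.155). It was lower with ethanol without overlap, as were 9.03% of all tested genes, while the values of Tssk3 overlapped. Tssk4 overlaps Tm9sf1 by 156 bases, with a log2 fold change of -0.12 (SE 0.11) for Tm9sf1, and a GENCODE transcript of Dgcr2 spans Tssk1, with 0.013 (SE 0.07) for Dgcr2. Of the nearest genes that do not overlap, Hgh1 beside Tssk5 had a log2 fold change of -0.18 (edgeR adjusted p = 0.39). It too was lower without overlap between the diets, as were 9.03% of all tested genes. The other 7, Ess2, Bsdc1, Marcksl1, Ipo4, Mdp1, Mroh1 and Gatad2a, ranged from -0.11 (Mroh1) to 0.16 (Mdp1).

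Other kinases of germ cells were mostly below 0. Of 14 listed genes, 0 passed edgeR's adjusted threshold, 12 were below 0 and 2 above, and the median was -0.08. Before adjustment 3 had an edgeR p under 0.05, all lower, as had 5.89% of all tested genes. Hipk4, a kinase needed for sperm head shape, was at 114.6, 110.9 and 130.2 CPM for controls against 99.9, 92.3 and 101.8 for ethanol (log2 fold change -0.27, SE 0.07, edgeR adjusted p = 0.177). Haspin, which phosphorylates a core histone, had a log2 fold change of -0.14 (edgeR adjusted p = 0.289), and Stk33 one of -0.13 (edgeR adjusted p = 0.336). The groups did not overlap for these 3, all lower, as for 9.03% of all tested genes.

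Markers of the germ cell stages give the setting in which the kinases were measured. Of 10 round spermatid markers all 10 were below 0, with a median of -0.13 and 0 passing, and their summed level was 1862 to 1929 TPM in controls and 1749 to 1904 TPM with ethanol. Of 12 elongating spermatid markers 8 were above 0, with a median of 0.015 and 0 passing, and their summed level was 48551 to 51610 TPM in controls and 49989 to 55428 TPM with ethanol. Of 10 spermatocyte markers 9 were below 0, with a median of -0.16 and 0 passing. Their summed level was 1510 to 1669 TPM in controls and 1398 to 1476 TPM with ethanol, without overlap. In CPM, 6 of the 10 were lower with ethanol without overlap, as were 9.03% of all tested genes. Sertoli cell markers summed to 1076 to 1228 TPM in controls and 1382 to 1523 TPM with ethanol, with 10 of 12 markers above 0 and 0 passing. In CPM, 7 of the 12 were higher with ethanol without overlap, as were 9.76% of all tested genes, and 0 were lower without overlap. The part of these shifts in the values of Tssk6 was not tested.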

How the data were processed

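The members and gene lists were chosen with earlier results of these data known. Libraries were stranded total RNA after removal of ribosomal RNA, per the labels' protocols. The submitters' processing notes name HISAT2 and the mm10 build. The labels state no counter, strand setting, version or annotation. Read counts per gene were deposited without normalization, and FPKM and TPM were computed by the authors, per the file headers. There were 0 sample columns outside the 6 libraries. The libraries of each pair differed by more than sampling noise (chi-square per gene of at least 7.18).

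Counts were tested with edgeR 4.0.16 in R 4.3.3 (filterByExpr, TMM, quasi-likelihood F-test, Benjamini-Hochberg adjustment over 25073 genes). The SE of a log2 fold change is its size over the root of F. Alternatives used DESeq2 1.42.0, limma 3.58.1, other scalings and filters, pseudocounts of 1 and 0.1, and each library left out. On data simulated for this comparison (24657 genes, 50 changed per size) the test recovered 22% of 1.25-fold, 60% of 1.5-fold and 82% of 2-fold changes. It made 143 calls, 11 of them on unchanged genes. The simulation drew each gene independently and changed only genes above a set mean level. It held no trend shared between genes, such as that with GC content, so these rates may not hold for the real libraries.

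Genes named were the 6 members, the listed partners, overlapping and nearest genes, the 3 genes most like a member over the libraries, and the 3 kinases of smallest p. H2ax is H2afx in the table. Statements on CPM refer to TMM-scaled counts. The coding sequence of Tssk6 is not reported here.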

Additional observations from a re-analysis of the deposited data

How the results depend on the processing

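Over 18 alternatives, 0 members passed the adjusted threshold in 17, and the members' median log2 fold change, -0.07, stayed below 0 in all 18. The labels number libraries 1 to 3 in both diets. Same-numbered libraries deviated together for number 3 (correlation across genes of 0.24) but not for 1 and 2 (-0.12 and 0.014). Both libraries numbered 3 correlated best with each other, and the 4 others did not do so with their own number, so the numbers were not taken to pair the samples. With the number as a replicate block edgeR called 5 genes higher, 10 lower and 1 member, Tssk6 (log2 fold change -0.50, SE 0.07, adjusted p = 0.0341), and called the partner gene H2afx (adjusted p = 0.00222). Over all genes, DESeq2 called 203 higher and 127 lower, limma-voom 3 and 2, upper-quartile factors 2 higher, the filter of 1 CPM in 3 libraries 2 higher, and the GC and length offsets, added after seeing the data, 3 higher and 1 lower. With 1 library left out, 0 to 1 genes were called higher and 0 to 2 lower. The causes were not tested.

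Signs turned in values near 0, none with an adjusted p under 0.05. On total counts alone Odf2 stood at 0.015 and Pdpk1 at 0.0024. On log2(TPM + 1) Tssk1 stood at 0.025, Odf2 at 0.0796 and Pdpk1 at 0.0422, and on log2(TPM + 0.1) at 0.025, 0.0797 and 0.0428. On log2(FPKM + 1) Odf2 stood at 0.0476 and Pdpk1 at 0.011. With GC and length offsets Tsks stood at 0.011 and Creb1 at -0.012. With 1 library left out the ranges were -0.0833 to 0.0057 for Tssk1, -0.0776 to 0.0758 for Tssk2, -0.0582 to 0.0622 for Tssk3, -0.0389 to 0.0372 for Tsacc, -0.0706 to 0.0307 for Odf2, -0.0836 to 0.098 for Hsp90ab1, -0.077 to 0.0306 for Pdpk1, and -0.72 to -0.32 for Tssk6. Counting error was small beside the spread between libraries for all 6 members.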

Other observations

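By the same measure of likeness, the genes closest to the other 5 members included no other kinase of this family. Tssk1 was closest to Pebp1 (0.0070) and to the ribosomal protein genes Rpl19 and Rpl7, and Tssk2 to Rpl26 (0.017), Rbm4b and Ccdc70. Tssk3 was closest to Clpb (0.022), B9d1 and 4930505A04Rik, Tssk4 to Atp5j (0.020), Pih1d1 and the sperm tail gene Tekt1 (0.026), and Tssk5 to Apbb1ip (0.037), Gm5152 and 4930451G09Rik. Log2 fold changes of these 15 genes lay between -0.18 and 0.03. Markers of red blood cells summed to 56.6 to 100.3 TPM in controls and 132.4 to 158.6 TPM with ethanol. In CPM, 5 of 5 were higher with ethanol without overlap, as were 9.76% of all tested genes. Adipose markers summed to 17.0 to 25.5 TPM in controls and 24.6 to 57.1 TPM with ethanol. The kinase genes summed to 2027 to 2181 TPM.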
